A study of Mus musculus with 16 samples.

Results

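The step described here is the middle of the conversion of wild-type (WT) mouse embryonic stem cells into epiblast-like cells, from day 2 to day 4. Its members are the 2 libraries titled E14 WT D4, compared with the 2 titled E14 WT D2, which are 4 of the 16 bulk RNA libraries of the series. All cells came from 1 line, E14 (ES-E14TG2a), and the labels call the 2 libraries of a group biological replicates. Before day 0 the cells grew without serum on fibronectin, in N2B27 medium with LIF, a Gsk3 inhibitor, a MEK inhibitor and vitamin C. They were then moved to AF medium, which is N2B27 with 12 ng/ml Fgf2, 20 ng/ml Activin A and 1% knock-out serum, so cells of days 2 and 4 had the same medium for different times. The cultures were split once more at day 4 with accutase to lower their density, and the labels do not say whether the day 4 cells were taken before or after that split. The other libraries are WT cells of days 0 and 7 and cells of a second genotype, written TKO and not expanded in the labels, on the same 4 days.

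Embryonic stem cells held by LIF with inhibitors of Gsk3 and MEK resemble the naive epiblast of the embryo before implantation. Fgf2 and Activin A move them through a formative state, in which naive factors are lost, DNA methylation is laid down again and the cells become able to enter the germ layers or the germline, toward a primed state like that of the epithelial epiblast after implantation. De novo methylation by Dnmt3a and Dnmt3b, helped by the cofactor Dnmt3l, silences germline genes and the X-linked Rhox and Mage genes in this period, and the primed epiblast then responds to Nodal, Wnt and BMP signals that pattern the primitive streak.

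Of 35975 genes in the tables, 18489 had enough counts to be tested, and 773 of the 804 genes on 36 lists were among them. A gene was called at an adjusted p under 0.05 in edgeR's quasi-likelihood test with Benjamini-Hochberg adjustment over all genes tested. Levels are CPM, counts scaled to the effective size of the library, given for replicate 1 and then replicate 2, and the values after ± are standard errors of log2 fold changes. Positions are those of the gene on GRCm38. The libraries held, over all transcripts, 52595303 and 43053715 estimated counts on day 2 and 58197630 and 49300368 on day 4. The 2 libraries of each day correlated at 0.997 (day 2) and 0.996 (day 4) across genes, which are not independent replicates. Their counts differed by more than sampling noise, with a chi-square per degree of freedom of 26.0 and 24.8. In bulk RNA, fewer cells of a type and less RNA per cell cannot be told apart, which holds for every level below.

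Between day 2 and day 4, 10055 genes were called, 54.4% of those tested, with 4839 higher (26.2%) and 5216 lower (28.2%). At 2-fold or more, 2245 genes were called higher (12.1%) and 2315 lower (12.5%), and the median over all genes tested was a log2 fold change of -0.04. In 13898 genes (75.2%) both day 4 libraries lay on the same side of both day 2 libraries. So many genes were called that the share of a list has to be read beside these shares.

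**Figure D1:**
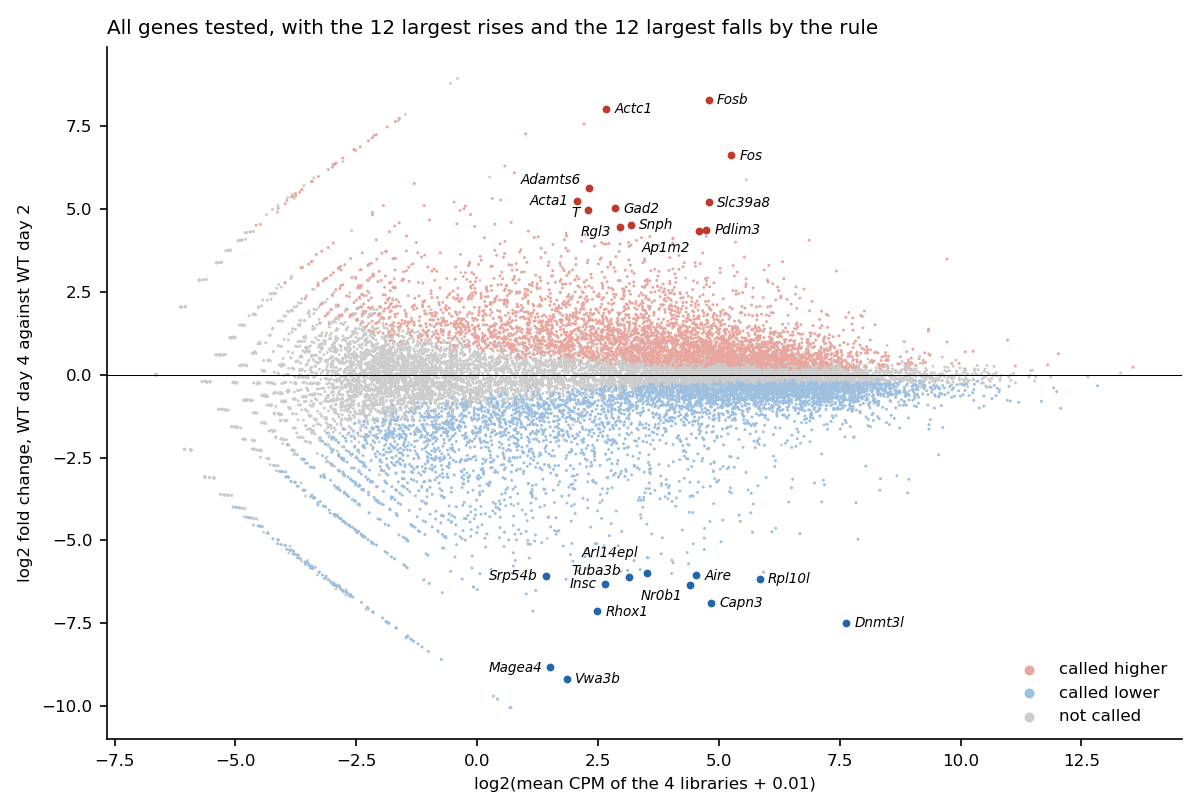
The log2 fold change from WT day 2 to WT day 4 (vertical) is plotted against the log2 of the mean CPM of the 4 libraries plus 0.01 (horizontal) for the 18489 genes tested, 1 point per gene, coloured by call, with the 12 largest rises and 12 largest falls named. Fosb is at 8.31 and Magea4 at -8.84. The named genes had to reach 5 CPM in the higher group, so genes at the lowest mean levels could not be named.

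The 12 largest rises and 12 largest falls were taken from called protein-coding genes at 5 CPM or more whose libraries did not overlap between days. For these genes the lack of overlap was a condition of the choice and not a result. The rises were led by genes of the contractile and immediate-early programs. Fosb, a subunit of the transcription factor AP-1 (ENSMUSG00000003545.3, chromosome 7, 19302696 to 19310051), lay at 0.162 and 0.182 CPM on day 2 and 79.8 and 30.2 CPM on day 4 (log2 fold change 8.31 ± 0.72, adjusted p = 2.4e-06). Replicate 1 of day 4 was above replicate 2, and without day 4 replicate 1 the log2 fold change of Fosb was 7.48. Fos, another AP-1 subunit (ENSMUSG00000021250.13, chromosome 12, 85473890 to 85477273), lay at 0.690 and 0.856 CPM on day 2 and 94.1 and 57.0 CPM on day 4 (log2 fold change 6.62 ± 0.26, adjusted p = 1.02e-09). The cardiac alpha-actin gene Actc1 rose from 0.0609 and 0.0259 to 17.4 and 7.82 CPM (log2 fold change 8.03 ± 0.93, which was 7.37 without day 4 replicate 1 and 8.77 without day 2 replicate 1). The skeletal alpha-actin gene Acta1 rose from 0.264 and 0.156 to 12.8 and 3.60 CPM (5.24 ± 0.71, and 4.08 or 5.87 without day 4 replicate 1 or 2). Both actin genes were highest in day 4 replicate 1.

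The other large rises were in genes of varied function. They were the secreted metalloprotease gene Adamts6 (5.63 ± 0.38), the zinc transporter gene Slc39a8 (5.20 ± 0.25), the glutamate decarboxylase gene Gad2 (5.02 ± 0.53, and 4.30 without day 4 replicate 2), the primitive streak factor T, the mitochondrial anchor gene Snph (4.52 ± 0.20), Rgl3 (4.45 ± 0.50), which encodes an exchange factor for Ral, Pdlim3 (4.37 ± 0.31), which encodes an actinin-binding protein, and the epithelial adaptor subunit gene Ap1m2 (4.35 ± 0.27). Slc39a8 lay at 1.73 and 1.14 CPM on day 2 and 51.7 and 55.8 CPM on day 4, and Adamts6 at 0.162 and 0.233 CPM on day 2 and 11.4 and 8.07 CPM on day 4. For both genes each day 4 library was far above each day 2 library.

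The 12 largest falls included 6 genes of the lists on pluripotency, germline and X-linked genes: Magea4, Dnmt3l, Rhox1, Nr0b1, Rpl10l and Tuba3b. Vwa3b had 1 count over the 2 day 4 libraries against 628 on day 2, a ratio of 757-fold lower (95% exact binomial interval 135 to 29950, for counting error only). The protease gene Capn3 fell from 55.7 and 58.4 to 0.483 and 0.481 CPM (-6.88 ± 0.21). Insc, whose protein helps to orient the mitotic spindle, fell from 12.3 and 12.5 to 0.103 and 0.209 CPM (-6.32 ± 0.46). Arl14epl fell from 21.2 and 23.7 to 0.379 and 0.314 CPM (-5.99 ± 0.17). Srp54b was listed at 3.39 and 7.11 CPM on day 2 and 0.0862 and 0.0627 CPM on day 4 (-6.06 ± 1.24, and -5.43 without day 2 replicate 2). It has near-identical copies among which reads can be split, so its value is uncertain.

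**Figure D2:**
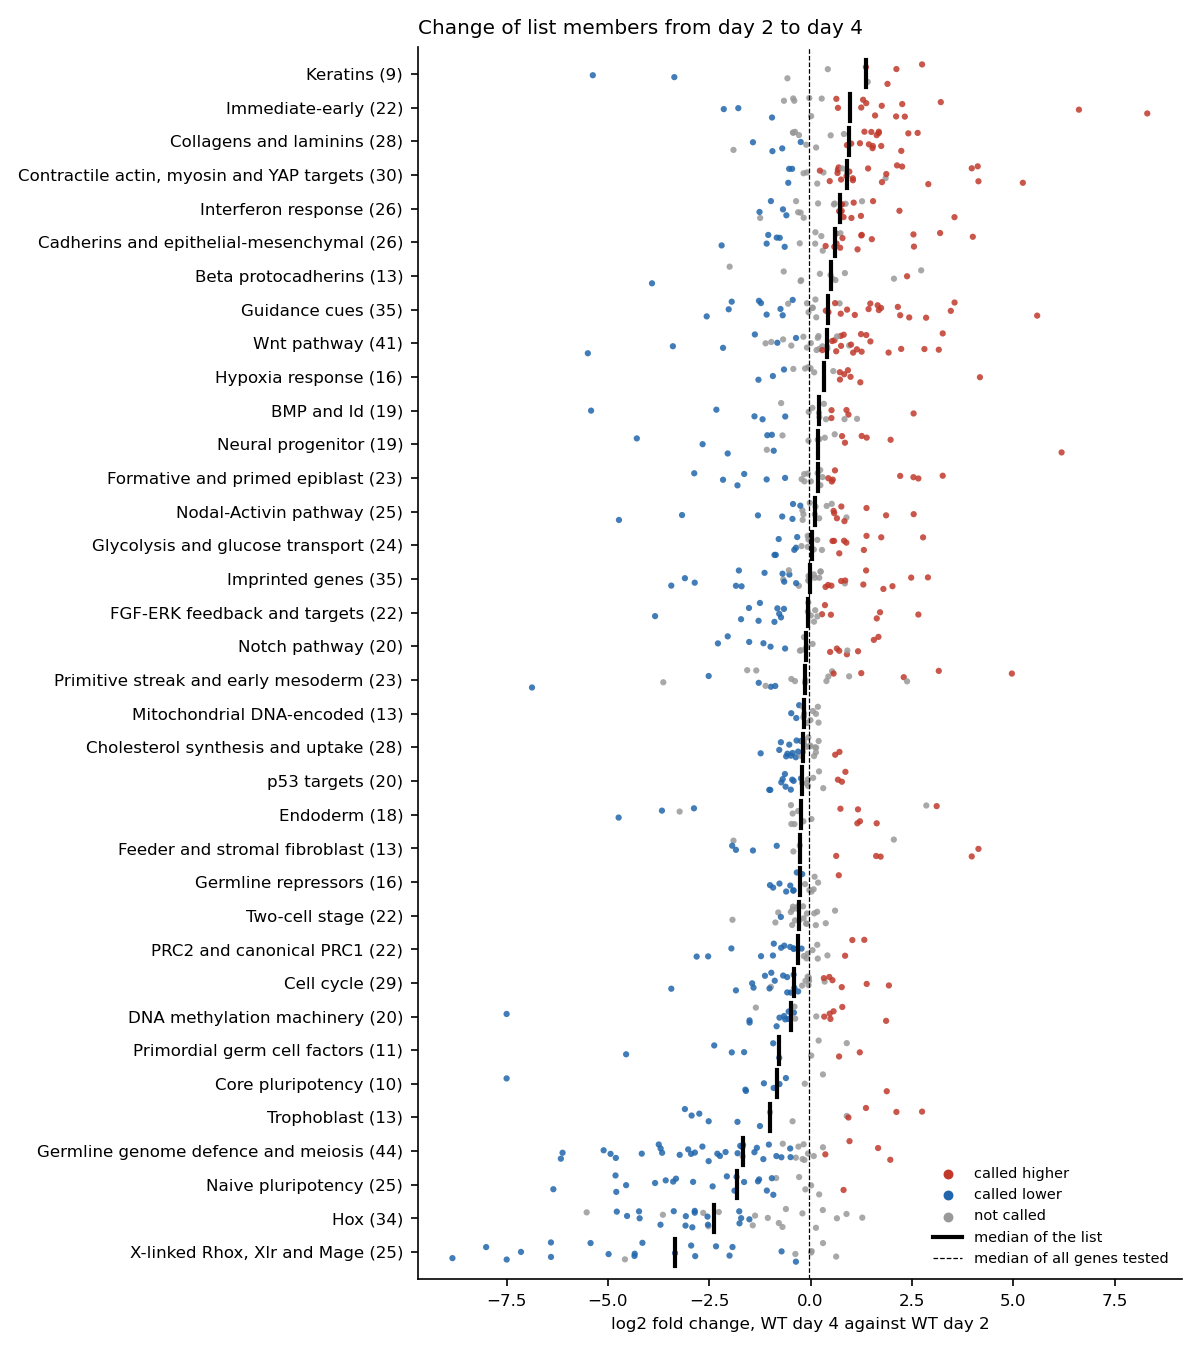
Each point is the log2 fold change of 1 tested gene from WT day 2 to WT day 4 (horizontal), grouped by list (vertical), with a bar at the median of the list and a dashed line at the median of all genes. The X-linked, Hox, naive and germline lists have medians of -3.34, -2.39, -1.83 and -1.67, and the keratin, immediate-early and collagen lists have medians of 1.37, 0.96 and 0.95.

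The naive pluripotency factors fell together. Of 25 listed genes, all tested, 19 were called lower (76.0%, against 28.2% of all genes) and 1 higher, 17 of the 19 fell 2-fold or more, and the list's median was -1.83. Zfp42, a classical marker of naive cells (ENSMUSG00000051176.6, chromosome 8, 43295063 to 43306980), lay at 85.6 and 102 CPM on day 2 and 6.91 and 8.88 CPM on day 4 (log2 fold change -3.57 ± 0.23, adjusted p = 9.75e-08). The orphan nuclear receptor gene Esrrb lay at 50.9 and 53.3 CPM on day 2 and 5.59 and 8.45 CPM on day 4 (log2 fold change -2.90 ± 0.35, adjusted p = 3.79e-05). Nr0b1, which encodes a nuclear receptor cofactor, lay at 36.9 and 47.1 CPM on day 2 and 0.379 and 0.669 CPM on day 4 (log2 fold change -6.35 ± 0.32, adjusted p = 9.54e-09). For all 3 genes the lower day 2 library was above the higher day 4 library, which for Nr0b1 was a condition of its choice.

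Fgf4, the FGF ligand that stem cells secrete themselves (ENSMUSG00000050917.5, chromosome 7, 144847367 to 144865243), lay at 248 and 275 CPM on day 2 and 15.9 and 20.8 CPM on day 4 (log2 fold change -3.84 ± 0.15, adjusted p = 6.47e-10). The maternal-effect and germ cell gene Dppa3 lay at 2.32 and 4.10 CPM on day 2 and 0.138 and 0.125 CPM on day 4 (-4.55 ± 0.51). The cell-cycle transcription factor gene Mybl2 lay at 349 and 351 CPM on day 2 and 92.7 and 97.6 CPM on day 4 (-1.88 ± 0.07). Prdm14, a repressor that protects the naive state, fell from 0.731 and 1.01 to 0.293 and 0.251 CPM (-1.64 ± 0.32). The 1 member called higher (2 without day 4 replicate 1) was Il6st, the shared receptor subunit through which LIF signals, at 26.7 and 23.4 CPM on day 2 and 41.6 and 46.5 CPM on day 4 (log2 fold change 0.81 ± 0.13, adjusted p = 0.000149).

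Klf4 had already lost most of its signal before this step. It lay at 222 and 225 CPM on day 0, 3.31 and 3.53 CPM on day 2 and 3.76 and 2.42 CPM on day 4, and its step was -0.13 ± 0.19 (adjusted p = 0.6). Klf2, chosen after its values were seen, followed the same course, with 163 and 122, 6.23 and 10.4 and 6.67 and 10.1 CPM. Within the naive list, then, some members were near their floor by day 2 and others were still well above it and fell between day 2 and day 4.

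Among the core pluripotency factors Nanog rose while most of the others fell. Nanog, a homeodomain factor of the pluripotency network (ENSMUSG00000012396.12, chromosome 6, 122707489 to 122714633), lay at 83.6 and 92.9 CPM on day 2 and 286 and 363 CPM on day 4 (log2 fold change 1.88 ± 0.11, adjusted p = 1.46e-08). Both day 4 libraries were at more than 3 times either day 2 library. Over the whole series of WT days Nanog ran from 738 and 726 CPM on day 0 down to 83.6 and 92.9 CPM on day 2, then up to 286 and 363 CPM on day 4 and 196 and 215 CPM on day 7. Sox2, the HMG-box partner of Oct4, lay at 107 and 125 CPM on day 2 and 33.8 and 42.1 CPM on day 4 (log2 fold change -1.61 ± 0.20, adjusted p = 2.3e-05). Pou5f1, which encodes Oct4, lay at 1478 and 1638 CPM on day 2 and 866 and 965 CPM on day 4 (log2 fold change -0.77 ± 0.13, adjusted p = 0.000173).

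Of the 10 core genes, 7 were called lower and 1 higher (2 without day 4 replicate 1), and the median was -0.84. The list also holds the methylation cofactor Dnmt3l (-7.50), described below, which is counted among those called lower. The RNA-binding protein gene L1td1 fell by 1.59 on the log2 scale. Fgf5, Otx2 and Pou3f1 mark the formative state, and they parted company in this step. Fgf5 lay at 98.4 and 92.4 CPM on day 2 and 82.4 and 99.8 CPM on day 4, groups that overlap (log2 fold change -0.07 ± 0.21, adjusted p = 0.809). Otx2, a homeodomain factor of the formative epiblast, rose from 121 and 110.2 to 159 and 174 CPM (log2 fold change 0.52 ± 0.10, adjusted p = 0.000802). Pou3f1, which encodes Oct6, fell from 140.1 and 157 to 49.7 and 45.6 CPM (log2 fold change -1.64 ± 0.15, adjusted p = 9.7e-07).

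**Figure D3:**
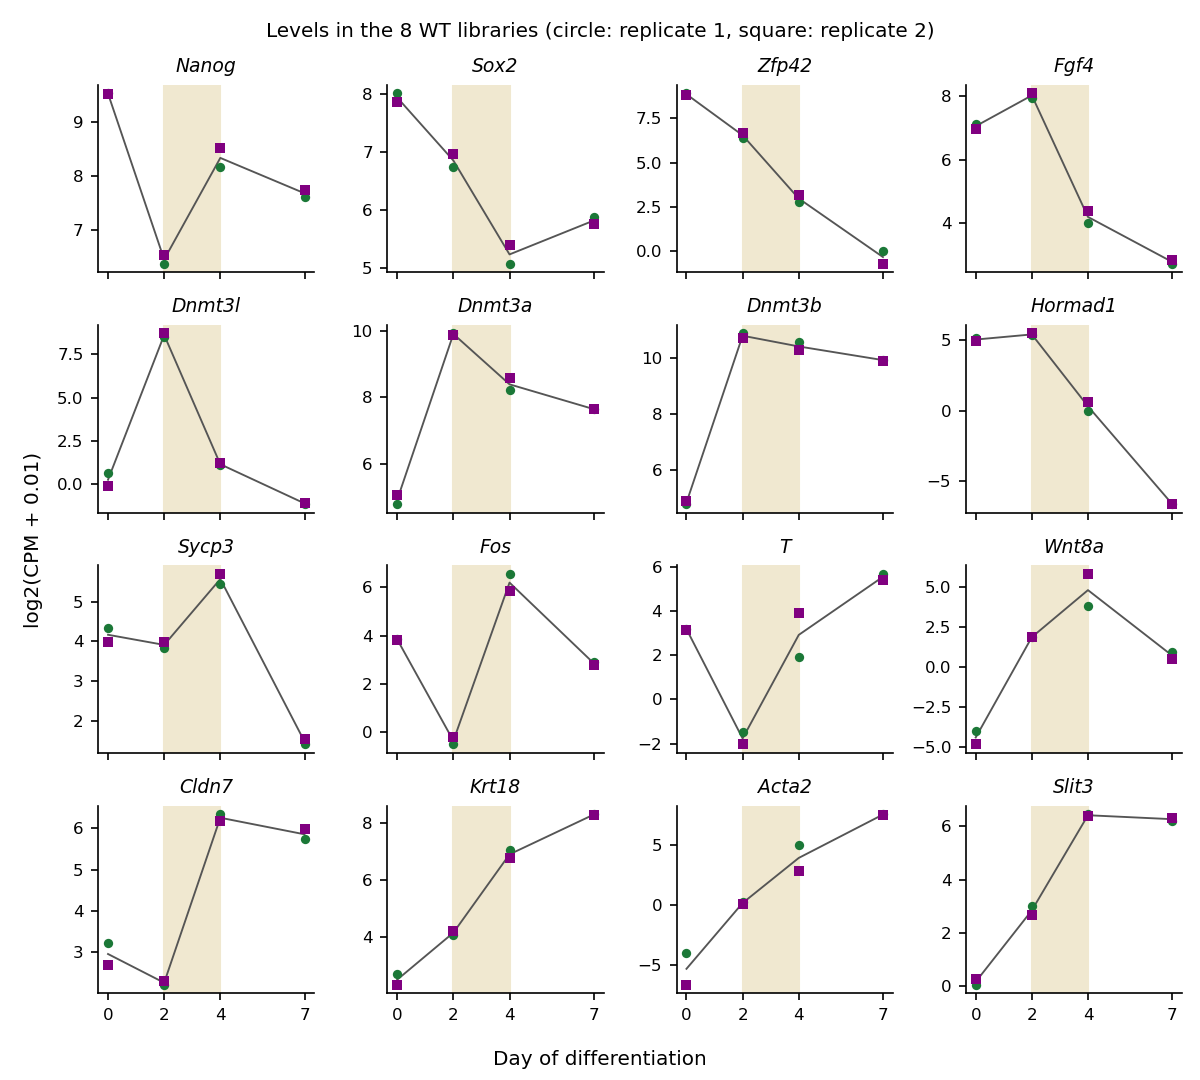
Levels of 16 genes in the 8 WT libraries, as log2(CPM + 0.01) (vertical) by day of differentiation (horizontal), with circles for replicate 1, squares for replicate 2, a line through the means and the day 2 to day 4 interval shaded. Dnmt3l peaks on day 2 at 372 and 421 CPM and is at 2.10 and 2.28 CPM on day 4, while Nanog goes from 83.6 and 92.9 to 286 and 363 CPM.

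The formative and primed list as a whole was split, with a median of 0.17. Of its 23 genes 8 were called higher (34.8%, against 26.2% of all genes) and 6 lower (26.1%, against 28.2%). The claudin gene Cldn6, a tight junction component, rose from 22.4 and 22.0 to 139 and 119 CPM (2.54 ± 0.23). The carbonic anhydrase gene Car14 rose from 9.65 and 9.13 to 45.0 and 41.9 CPM (2.21 ± 0.13). Tead2, a partner of YAP, rose from 161 and 169.9 to 237 and 247 CPM (0.55 ± 0.08). Among the falls were Lef1, a nuclear effector of Wnt signals, from 154 and 161 to 38 and 32.6 CPM (-2.16 ± 0.10), the epithelial factor Grhl2 from 114 and 97.5 to 53.4 and 46.1 CPM (-1.08 ± 0.11), and Rbpj, the DNA-binding effector of Notch (-0.63 ± 0.10). None of these 6 genes overlapped between days.

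Of the DNA methylation genes, the cofactor Dnmt3l all but disappeared. Dnmt3l, which has no catalytic activity of its own and stimulates Dnmt3a and Dnmt3b (ENSMUSG00000000730.13, chromosome 10, 78041947 to 78063622), lay at 372 and 421 CPM on day 2 and 2.10 and 2.28 CPM on day 4 (log2 fold change -7.50 ± 0.39, adjusted p = 5e-08). It had been at 1.51 and 0.904 CPM on day 0 and was at 0.434 and 0.458 CPM on day 7, so that of the 4 days only day 2 held a high level. Aire, the gene for the autoimmune regulator, overlaps Dnmt3l on chromosome 10 (78030022 to 78043610) and lay at 47.9 and 43.1 CPM on day 2 and 0.672 and 0.690 CPM on day 4 (-6.06 ± 0.17, and -6.78 with an offset for effective transcript length). Reads of overlapping genes may not be separable here, so the values of the neighbours are not independent.

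The catalytic genes changed less. Dnmt3a lay at 974 and 952 CPM on day 2 and 297 and 380.1 CPM on day 4 (log2 fold change -1.51 ± 0.55, adjusted p = 0.0418). Both day 4 libraries were well below both day 2 libraries. The fit shares its spread among all groups, and Dnmt3a lay at 187 and 33.9 CPM in the 2 TKO day 4 libraries. The call was lost with no filter on low counts (adjusted p = 0.104), and when any 1 of the 4 libraries was left out (0.0995 to 0.192). Dnmt3b lay at 1898 and 1695 CPM on day 2 and 1516 and 1245 CPM on day 4, a difference that did not pass the test (log2 fold change -0.38 ± 0.19, adjusted p = 0.104). Dnmt1, the maintenance methyltransferase, lay at 441 and 401 CPM on day 2 and 313 and 319.9 CPM on day 4 (log2 fold change -0.41 ± 0.09, adjusted p = 0.00155). Uhrf1, which recruits Dnmt1 to newly replicated DNA, lay at 593 and 544 CPM on day 2 and 354 and 368 CPM on day 4 (log2 fold change -0.66 ± 0.07, adjusted p = 4.78e-06).

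Of the 20 genes of this list, 6 were called higher and 10 lower, a median of -0.48. The 5-methylcytosine oxidase gene Tet1, chosen after its values were seen, lay at 634 and 459 CPM on day 2 and 215 and 169.7 CPM on day 4 (-1.51 ± 0.24). The reader genes diverged: Mbd3, a subunit of the NuRD complex, fell from 199 and 237 to 120.0 and 124 CPM (-0.84 ± 0.10). Zbtb4 rose from 1.06 and 0.830 to 3.19 and 3.74 CPM (1.86 ± 0.22). Uhrf2, the paralogue of Uhrf1, rose from 58.5 and 59.9 to 84.5 and 79.5 CPM (0.47 ± 0.09). With an offset for effective transcript length the number of members called higher was 3 and not 6, and Zbtb4 was not called (0.99, adjusted p = 0.0781).

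Most of the germline genes fell. Of 44 genes of genome defence and meiosis, all tested, 30 were called lower (68.2%) and 4 higher, with a median of -1.67, and 26 fell 2-fold or more. Several of them are bound in stem cells by the repressors E2F6 and MGA with MAX, whose DNA sites are TCCCGC and the E-box CACGTG. The windows below are 100 bases upstream of 3 genes that fell and 2 that rose, shown because they carry those letters. For Hormad1, Rpl10l and Dmc1 they end at the annotated start, and for Fkbp6 and Sycp3 they run from base 232 to base 133 and from base 118 to base 19 before it. They are from RefSeq on GRCm38.p6, written 5′ to 3′ on the strand of the gene, with TCCCGC (or its reverse complement GCGGGA) and CACGTG in capitals.
Hormad1, chr3:95559577-95559676, plus strand: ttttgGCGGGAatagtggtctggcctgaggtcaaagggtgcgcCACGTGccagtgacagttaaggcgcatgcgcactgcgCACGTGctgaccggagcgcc
Rpl10l, chr12:66284402-66284501, minus strand: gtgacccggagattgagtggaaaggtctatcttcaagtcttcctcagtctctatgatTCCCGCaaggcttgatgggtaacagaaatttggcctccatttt
Fkbp6, chr5:135350046-135350145, minus strand: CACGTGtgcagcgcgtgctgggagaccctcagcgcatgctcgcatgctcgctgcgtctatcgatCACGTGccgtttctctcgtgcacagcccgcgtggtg
Sycp3, chr10:88459469-88459568, plus strand: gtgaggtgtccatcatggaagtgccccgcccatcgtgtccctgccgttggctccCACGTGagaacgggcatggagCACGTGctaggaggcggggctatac
Dmc1, chr15:79605110-79605209, minus strand: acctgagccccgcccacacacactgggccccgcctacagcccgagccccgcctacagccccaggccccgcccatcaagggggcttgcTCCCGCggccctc

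Both kinds of gene, those that fell and those that rose, hold the letters. Promoters in the RefSeq table were matched by symbol for 38 of the 44 germline genes, and the 250 bases before the start held TCCCGC on either strand in 14 (36.8%), CACGTG, which reads the same on both strands, in 14 (36.8%) and either in 24 (63.2%). The 2 motifs do not overlap each other. Of all 32851 promoters of the RefSeq set 16.9% held TCCCGC, 6.02% CACGTG and 21.5% either, and of the 13162 tested genes with a promoter 30.3%, 9.04% and 36.0%. Among the germline genes called lower 16 of 27 with a promoter held either motif (59.3%), and among the 4 called higher all 4 held TCCCGC and 1 also CACGTG. A match of letters is a description of the window and not a binding site.

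Hormad1, which encodes an axis protein of meiotic chromosomes, lay at 41.1 and 45.2 CPM on day 2 and 0.983 and 1.55 CPM on day 4 (log2 fold change -5.11 ± 0.18, adjusted p = 8.94e-10). Rpl10l, an intronless copy of a ribosomal protein gene used in the male germline, lay at 102 and 124 CPM on day 2 and 1.34 and 1.84 CPM on day 4 (log2 fold change -6.16 ± 0.21, adjusted p = 1.02e-09). Fkbp6, a cofactor of the piRNA pathway, lay at 18.0 and 22.4 CPM on day 2 and 1.52 and 1.59 CPM on day 4 (log2 fold change -3.70 ± 0.16, adjusted p = 1.37e-09). Dazl, whose protein binds messages in germ cells (ENSMUSG00000010592.9, chromosome 17, 50279395 to 50293636), lay at 26.1 and 25.1 CPM on day 2 and 1.34 and 2.53 CPM on day 4 (log2 fold change -3.75 ± 0.20, adjusted p = 7.31e-09). In each of these the day 4 libraries were at a small fraction of the day 2 libraries and did not overlap with them. For Rpl10l, one of the largest falls, the lack of overlap was a condition of its choice. Tuba3b, one of 2 near-identical alpha-tubulin genes, is uncertain for that reason, and was listed at 16 and 18.8 CPM on day 2 and 0.155 and 0.355 CPM on day 4 (-6.12 ± 0.40, and -6.78 without day 4 replicate 2).

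The 4 germline genes that rose were meiotic recombination and axis genes. Sycp3, a component of the lateral element of the synaptonemal complex, lay at 14.2 and 15.9 CPM on day 2 and 43.4 and 52.0 CPM on day 4 (log2 fold change 1.66 ± 0.15, adjusted p = 5.89e-07). The mismatch repair homologue Msh5, which acts at crossovers, lay at 1.81 and 1.79 CPM on day 2 and 6.74 and 7.34 CPM on day 4 (log2 fold change 1.97 ± 0.18, adjusted p = 8.67e-07). The meiotic recombinase gene Dmc1 lay at 5.87 and 6.43 CPM on day 2 and 12.0 and 11.9 CPM on day 4 (log2 fold change 0.96 ± 0.18, adjusted p = 0.000431). Rec8, a meiotic cohesin subunit chosen after its values were seen, lay at 8.33 and 8.85 CPM on day 2 and 10.6 and 11.5 CPM on day 4 (log2 fold change 0.36 ± 0.14, adjusted p = 0.0438). Its call was lost in fits with upper-quartile scaling or a length offset and in 3 of the 4 fits that leave out a library, with adjusted p from 0.0653 to 0.178. The helicase gene Ddx4, also chosen after its values were seen, lay at 28.5 and 28.1 CPM on day 2 and 20.1 and 30.8 CPM on day 4, with no call (log2 fold change -0.15 ± 0.17, adjusted p = 0.477).

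The sums over the germline list were 943 and 984 CPM on day 2 and 298 and 380 CPM on day 4. Of the list's 19 genes at 5 CPM or more on day 4, 7 were over 1.5-fold higher in day 4 replicate 2 than in replicate 1 and none the other way. The counts of calls were within 1.5 times of those given under every alternative tried. The germline repressors themselves moved less: of 16 listed genes 9 were called lower and 1 higher, with a median of -0.27. Trim28, a corepressor for zinc finger proteins, fell from 1733 and 1839 to 860.3 and 924 CPM (-1.0 ± 0.09). L3mbtl2, of the variant Polycomb complex PRC1.6, fell from 209.9 and 207 to 109.5 and 110.1 CPM (-0.93 ± 0.06). Max fell from 75.3 and 88.3 to 48.3 and 47.8 CPM (-0.77 ± 0.09). Yaf2, a Polycomb-associated protein gene, rose from 10.3 and 11.8 to 17.5 and 18.2 CPM (0.70 ± 0.11). The partners Mga and E2f6, chosen after their values were seen, had steps of -0.14 ± 0.22 and 0.02 ± 0.08, and neither was called.

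X-linked Rhox, Xlr and Mage genes, families of clustered reproductive genes, had the lowest median of the 36 lists. Of 28 listed genes 25 were tested, 19 were called lower (76.0%) and 0 higher, and the median was -3.34, or -2.85 with genes at 0 set at their bound. The count of 0 was also 0 at an unadjusted p under 0.05 in edgeR and with DESeq2, as it was for the Hox and two-cell-stage lists below. Magea4 had 1 count over the day 4 libraries against 495 on day 2, which is 597-fold lower (95% exact binomial interval 107 to 23617). The fitted value of -8.84 ± 0.40 moved to -10.81 or -8.13 without day 4 replicate 1 or 2. Magea8 and Magea2, chosen after their values were seen, had 0 counts on day 4 and were at least 27.3-fold and at least 18.9-fold lower, where 3 counts over the group were taken as the floor. Rhox1, a reproductive homeobox gene, lay at 9.87 and 12.3 CPM on day 2 and 0.121 and 0.0209 CPM on day 4 (-7.15 ± 0.36, and -8.81 or -6.48 without day 4 replicate 1 or 2).

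Not every X-linked gene of this kind fell. Xlr5a lay at 54.4 and 60.4 CPM on day 2 and 7.52 and 8.45 CPM on day 4 (-2.85 ± 0.12). Xlr3a, chosen after its values were seen, lay at 100.4 and 106 CPM on day 2 and 92.1 and 119 CPM on day 4 (log2 fold change 0.03 ± 0.10, adjusted p = 0.854). Near-identical copies in these families share reads, and values of single members are uncertain. The promoters of 21 of the 25 tested genes were in the RefSeq table, 1 held TCCCGC and 1 CACGTG, and the 17 among those that were called lower held neither. The median number of CpG sites in their 250 bases was 5, against 14 in the germline list and 15 over the tested genes.

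Factors of primordial germ cells and genes of the two-cell stage were measured beside them. Of 11 germ cell factors tested 6 were called lower and 2 higher, the latter being the stem cell factor receptor gene Kit, from 16.9 and 16.8 to 45.7 and 32.5 CPM (1.21 ± 0.16), and the RNA-binding protein gene Dnd1, from 3.84 and 4.18 to 5.78 and 7.27 CPM (0.70 ± 0.23). The count of 2 was 1 when day 2 replicate 1, day 2 replicate 2 or day 4 replicate 2 was left out, and Dnd1 then missed the threshold (0.0525 to 0.126). Ifitm1, an interferon-inducible membrane protein gene, fell from 38.1 and 43.7 to 10.2 and 11.1 CPM (-1.94 ± 0.21). Of 22 two-cell-stage genes only Eif1a was called, lower, at 194 and 210.3 CPM on day 2 and 122 and 121 CPM on day 4 (log2 fold change -0.73 ± 0.08, adjusted p = 3.2e-06). Eif1a made up most of the list's summed CPM, which was 230 and 250 on day 2 and 143 and 161 on day 4. No member of the Zscan4 and Usp17l families was called. Gm2022, chosen after its values were seen, was at -0.87 and not called, and at -5.77 without day 4 replicate 2.

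Many Hox genes fell, as did genes of the Polycomb complexes that hold them silent. Of 34 tested Hox genes, transcription factors of the body axis, 17 were called lower and 0 higher, with a median of -2.39, or -1.73 with genes at 0 at their bound. Levels were low throughout: the summed CPM of 38 Hox genes was 27.7 and 35.0 on day 2 and 8.16 and 23.2 on day 4. Hoxb9 lay at 2.03 and 1.63 CPM on day 2 and 0.0517 and 0.146 CPM on day 4 (-4.23 ± 0.49, and -3.59 or -5.07 without day 4 replicate 1 or 2). Hoxd13 lay at 4.89 and 5.58 CPM on day 2 and 0.707 and 0.732 CPM on day 4 (-2.86 ± 0.31). The number called lower was 11 without day 2 replicate 1, 10 without day 2 replicate 2 and 7 without day 4 replicate 1.

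Of 22 genes of PRC2 and canonical PRC1, 12 were called lower and 3 higher, with a median of -0.32. The chromobox gene Cbx8 fell from 3.86 and 4.77 to 0.672 and 0.544 CPM (-2.81 ± 0.27). Bmi1, a PRC1 ring protein gene, fell from 39.5 and 42.6 to 11.3 and 9.87 CPM (-1.95 ± 0.10). The PRC2 cofactor Jarid2 fell from 417 and 405 to 221 and 211 CPM (-0.93 ± 0.08). Ezh1, the alternative methyltransferase of PRC2, rose from 25.0 and 23.8 to 64.3 and 58.1 CPM (1.33 ± 0.10). Phf19, which targets PRC2 to CpG islands, rose by 1.03 and the PRC1 gene Phc2 by 0.85 on the log2 scale.

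The 2 day 4 libraries stood apart from each other for some lists. Over all genes at 5 CPM or more on day 4, 229 (2.14%) were over 1.5-fold higher in replicate 1 and 149 (1.40%) in replicate 2, against 60 and 44 on day 2. In replicate 1 higher levels were seen for 7 of 16 immediate-early genes, 9 of 28 contractile genes, 4 of 16 collagen and laminin genes, 4 of 8 neural genes and 3 of 5 fibroblast genes at 5 CPM or more, and for none of them in replicate 2. In replicate 2 higher levels were seen for 5 of 14 naive genes, 7 of 19 germline genes, 5 of 21 Nodal and Activin genes, 4 of 25 Wnt genes and 3 of 5 streak genes, and for none of them in replicate 1. The core pluripotency, methylation, Polycomb, cholesterol, p53 and cell cycle lists had no such gene. The results below that rest on 1 of these libraries are given without it too.

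**Figure D4:**
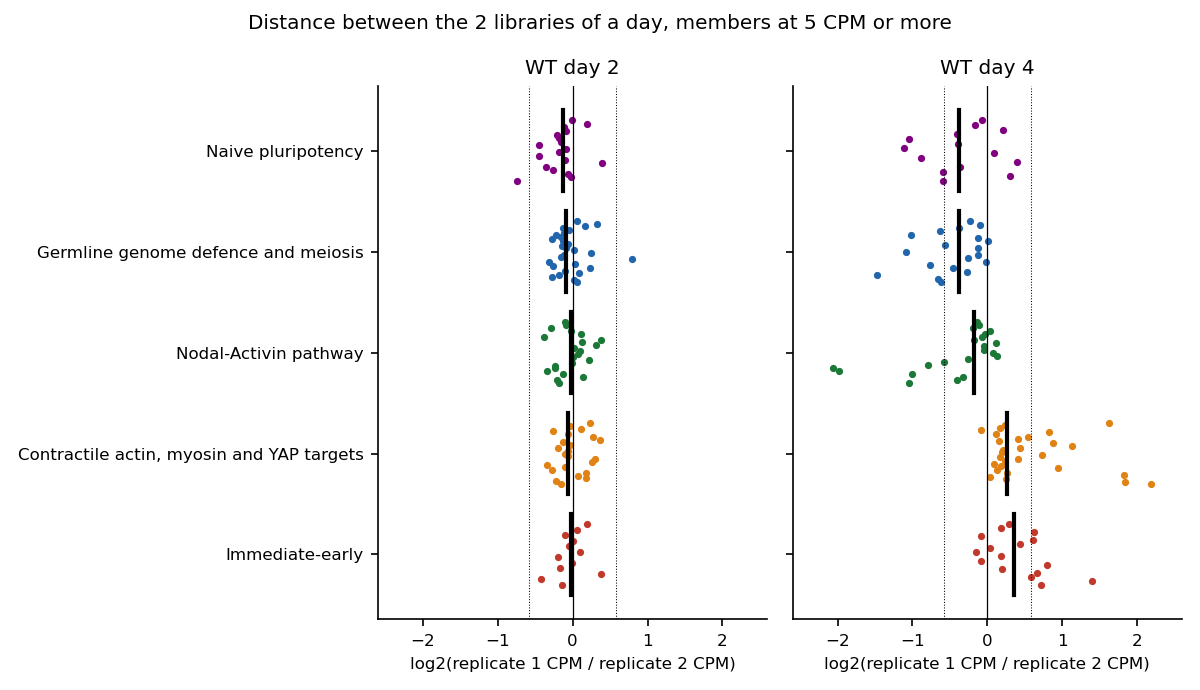
Each point is 1 gene at 5 CPM or more, placed by the log2 ratio of replicate 1 to replicate 2 (horizontal) for WT day 2 (left) and WT day 4 (right), grouped by list (vertical). On day 4 immediate-early and contractile genes lie to the right (7 of 16 and 9 of 28 over 1.5-fold higher in replicate 1) and naive, germline and Nodal genes to the left, while on day 2 nearly all points lie close to 0.

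Immediate-early genes, which growth factors, stress and cell handling induce within minutes, rose. Of 22 listed genes 13 were called higher (59.1%, against 26.2% of all genes) and 3 lower, with a median of 0.96. Jun, the AP-1 subunit gene, lay at 6.05 and 6.67 CPM on day 2 and 70.6 and 47.0 CPM on day 4 (log2 fold change 3.21 ± 0.16, adjusted p = 4.85e-09). Zfp36, whose protein destabilises short-lived messages, lay at 5.44 and 4.77 CPM on day 2 and 28.2 and 23.1 CPM on day 4 (2.32 ± 0.16). Egr1, chosen after its values were seen, lay at 28.3 and 21.7 CPM on day 2 and 152 and 87.8 CPM on day 4 (2.26 ± 0.29). All of these were higher in day 4 replicate 1 than in replicate 2, and both libraries were above both of day 2. Myc fell from 72.6 and 82.9 to 21.4 and 23.8 CPM (log2 fold change -1.78 ± 0.11, adjusted p = 1.66e-08). The AP-1 gene Fosl1 fell from 0.589 and 0.337 to 0.103 and 0.105 CPM (-2.14 ± 0.49). The splitting of the cultures at day 4 and the day itself cannot be told apart in this design.

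FGF and ERK feedback genes were divided, with a median of -0.06. Of 22 genes 6 were called higher (27.3%, against 26.2% of all genes) and 10 lower (45.5%, against 28.2%). The feedback inhibitor gene Spry1 rose from 20.4 and 21.1 to 58.4 and 70.3 CPM (1.63 ± 0.12). Il17rd, which also restrains FGF receptors, rose from 113 and 90.7 to 287 and 381 CPM (1.71 ± 0.17). Spry4, of the same family as Spry1, fell from 91.0 and 91.8 to 34.4 and 29.3 CPM (-1.52 ± 0.10). The receptor gene Fgfr2 fell from 12.2 and 12.6 to 6.78 and 3.57 CPM (-1.25 ± 0.24). The ETS factor gene Etv4 fell from 98.5 and 106 to 56.8 and 59.2 CPM (-0.82 ± 0.09). Sprouty genes thus moved in opposite directions within 1 pathway.

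In the Nodal and Activin pathway 8 of 25 genes were called higher (32.0%) and 7 lower (28.0%), near the 26.2% and 28.2% of all genes. The median was 0.12, and more of the genes were called higher without day 4 replicate 1. Furin, a protease that matures Nodal, rose from 15.7 and 14.6 to 54.5 and 55.9 CPM (1.86 ± 0.08). The signal transducer Smad3 rose from 23.9 and 22.4 to 59.4 and 61.0 CPM (1.38 ± 0.09). The type I receptor gene Acvr1b rose from 29.5 and 23.8 to 49.5 and 45.8 CPM (0.83 ± 0.10). The related ligand gene Gdf3 fell from 157 and 181 to 59.1 and 78.6 CPM (-1.30 ± 0.15). Inhbb, an Activin subunit gene, fell from 0.670 and 1.27 to 0.121 and 0.0836 CPM (-3.17 ± 0.51). Pcsk6, another protease of the pathway, fell by 0.70 on the log2 scale. The targets Nodal and Lefty1, chosen after their values were seen, were split between the day 4 libraries. Lefty1, a feedback inhibitor of Nodal, lay at 220.4 and 280.3 CPM on day 2 and 187 and 738 CPM on day 4 (log2 fold change 0.89 ± 0.50, adjusted p = 0.167). Nodal lay at 73.0 and 79.9 CPM on day 2 and 73.1 and 147 CPM on day 4 (log2 fold change 0.52 ± 0.22, adjusted p = 0.0679). Day 4 replicate 1 lay below the day 2 libraries for Lefty1 and between them for Nodal, and replicate 2 was above them for both. Without replicate 1 both were called (1.60 with adjusted p = 0.0011, and 0.98 with adjusted p = 7.63e-06), and without replicate 2 the values were -0.42 and -0.06. Nodal was also called with DESeq2 (adjusted p = 0.0297).

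Wnt pathway genes rose more often than they fell, with 19 of 41 called higher (46.3%) and 6 lower and a median of 0.41. The feedback gene Axin2 lay at 6.78 and 7.45 CPM on day 2 and 24.5 and 29.5 CPM on day 4 (log2 fold change 1.92 ± 0.16, adjusted p = 3.3e-07). The receptor gene Fzd3 lay at 16.3 and 13.6 CPM on day 2 and 40.5 and 30.5 CPM on day 4 (1.24 ± 0.15). Tcf7, a nuclear effector, lay at 74.8 and 76.3 CPM on day 2 and 113 and 121 CPM on day 4 (0.63 ± 0.07). Notum, whose enzyme strips the lipid from Wnt proteins and so inactivates them, fell from 8.47 and 11.4 to 0.241 and 0.188 CPM (-5.50 ± 0.26). The ligand gene Wnt6 fell from 1.08 and 0.752 to 0.103 and 0.0627 CPM (-3.40 ± 0.50). Wnt8a, a ligand of the epiblast chosen after its values were seen, lay at 3.61 and 3.61 CPM on day 2 and 13.7 and 55.7 CPM on day 4 (log2 fold change 3.26 ± 0.76, adjusted p = 0.00446), or 3.98 and 1.92 without day 4 replicate 1 or 2, and the call was lost in a fit of the 4 libraries alone (adjusted p = 0.0844).

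BMP genes were even, with 5 of 19 called higher and 5 lower. That is 26.3% each way, near the 26.2% higher and 28.2% lower of all genes. The ligand gene Bmp7 rose from 2.13 and 2.72 to 14.5 and 13.6 CPM (2.54 ± 0.20). Bmp4 rose from 3.82 and 4.28 to 7.53 and 7.92 CPM (0.93 ± 0.15). Id2, a target of the pathway, fell from 10.7 and 14.1 to 5.64 and 5.21 CPM (-1.18 ± 0.23). Its relatives Id1, Id3 and Id4, chosen after their values were seen, had steps of 0.84, 1.15 and 0.33. They were not called (adjusted p = 0.187, 0.114 and 0.32). Id3 was called higher in fits of the 4 libraries alone (adjusted p = 0.00647) and of the 8 WT libraries (0.00691). Among 20 Notch genes 7 were called higher (35.0%) and 6 lower (30.0%), beside the same shares of all genes. The Notch target gene Hes1 lay at 13.3 and 14.1 CPM on day 2 and 30.3 and 50.7 CPM on day 4 (1.56 ± 0.21). Nrarp, another target, lay at 2.68 and 2.23 CPM on day 2 and 8.88 and 6.84 CPM on day 4 (1.67 ± 0.20), and the receptor gene Notch2 rose too (1.17 ± 0.16). The ligand gene Dll1 fell from 30.3 and 34.3 to 7.28 and 5.94 CPM (-2.29 ± 0.22). The fringe gene Rfng fell from 27.9 and 30.5 to 10.6 and 9.87 CPM (-1.52 ± 0.14).

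Markers of the germ layers moved unevenly. Of 23 streak and mesoderm genes tested 5 were called higher and 5 lower, with a median of -0.13. That is 21.7% each way, below the 26.2% higher and 28.2% lower of all genes. T, the brachyury gene of the primitive streak (ENSMUSG00000062327.10, chromosome 17, 8434423 to 8442496), lay at 0.345 and 0.233 CPM on day 2 and 3.81 and 15.1 CPM on day 4 (log2 fold change 4.97 ± 1.00, adjusted p = 0.00206). Both day 4 libraries were above both day 2 libraries, replicate 2 by the wider margin, and the log2 fold change was 5.69 without day 4 replicate 1 and 3.68 without replicate 2. Eomes, another streak factor, lay at 6.80 and 6.17 CPM on day 2 and 5.66 and 13.3 CPM on day 4, with no call (log2 fold change 0.53 ± 0.35, adjusted p = 0.225). Its value rested on which day 4 library was kept: it was 1.07 without replicate 1, and the sign was reversed without replicate 2 (-0.20). The Wnt target gene Sp5 had counts of 2 on day 2 against 24 on day 4, a ratio of 9.95-fold higher (95% exact binomial interval 2.47 to 86.9). Sp5 was not called without day 2 replicate 1 or day 4 replicate 2 (adjusted p = 0.113 and 0.11), and its log2 fold change ran from 2.07 to 6.27 when 1 library was left out.

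The number of streak genes called higher ranged from 2 to 8 when 1 library was left out, 8 without day 4 replicate 1 and 2 without either day 2 replicate 1 or day 4 replicate 2, and 3 were called lower without day 2 replicate 2. Kdr, the VEGF receptor of early mesoderm, lay at 0.934 and 1.06 CPM on day 2 and 0.586 and 0.209 CPM on day 4 (-1.28 ± 0.34, and -2.20 or -0.76 without day 4 replicate 1 or 2). Hand1 fell from 0.548 and 0.441 to 0.103 and 0.0627 CPM (-2.51 ± 0.70, with an adjusted p of 0.0545 without day 4 replicate 2). Cdx2, a factor of trophoblast and posterior mesoderm, had 30 counts on day 2 and 0 on day 4 and was at least 12.1-fold lower against the floor of 3 counts. The summed CPM of all 24 streak genes was 32.3 and 33.2 on day 2 and 34.6 and 63.9 on day 4, so the day 4 replicate 2 library alone stood apart.

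Of 18 endoderm genes 6 were called higher (33.3%, against 26.2% of all genes) and 3 lower (16.7%, against 28.2%), with a median of -0.24. Fewer were called higher without day 2 replicate 2. The summed CPM of the list was 58.6 and 50.8 on day 2 and 120.2 and 112 on day 4. Foxa2, a pioneer factor of endoderm, lay at 0.670 and 0.882 CPM on day 2 and 2.71 and 10.7 CPM on day 4 (log2 fold change 3.11 ± 0.57, adjusted p = 0.000744, and 3.84 or 1.82 without day 4 replicate 1 or 2). The laminin gene Lama1 rose from 5.60 and 3.97 to 18.5 and 11.3 CPM (1.63 ± 0.25). The chemokine receptor gene Cxcr4 rose from 0.569 and 0.441 to 1.03 and 1.25 CPM (1.15 ± 0.28). The 3 members called lower were Gata6, Hnf4a and Sox17. Gata6, which extraembryonic endoderm also expresses, lay at 1.16 and 1.06 CPM on day 2 and 0.103 and 0.0627 CPM on day 4 (-3.67 ± 0.65), and Hnf4a had 73 counts on day 2 and 3 on day 4, a ratio of 29.3-fold lower (95% exact binomial interval 9.65 to 146). Sox17 lay at 0.366 and 0.363 CPM on day 2 and 0.0862 and 0 CPM on day 4 (-2.88 ± 0.75, and -6.86 or -2.04 without day 4 replicate 1 or 2). Dab2 (1.17) and Col4a1 (1.22), chosen after their values were seen, were called higher and lost the call without day 2 replicate 2 (0.0683 and 0.0559), Dab2 also without day 2 replicate 1 (0.0756). Gata4 and Sox7, which extraembryonic endoderm expresses too, were at -0.31 and -0.48 and not called.

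Neural genes were split 6 to 6 among 19 tested, 31.6% each way, near the 26.2% higher and 28.2% lower of all genes. Nes, the intermediate filament gene of neural progenitors, rose from 57.5 and 50.7 to 176 and 106 CPM (1.38 ± 0.25). Map2, of neuronal microtubules, rose from 4.33 and 3.68 to 19.6 and 12.0 CPM (1.97 ± 0.22). Sox1, the first specific factor of neuroectoderm, fell from 34.1 and 39.3 to 17.3 and 17.7 CPM (-1.07 ± 0.15). Zic1 fell from 1.30 and 0.986 to 0.207 and 0.146 CPM (-2.66 ± 0.51). The summed CPM of 23 neural genes was 182 on both day 2 libraries and 309 and 212 on day 4.

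Markers of cells that could be present beside the epiblast-like cells were also read. Of 13 fibroblast and feeder genes tested 5 were called higher and 4 lower (2 without day 4 replicate 2), and the sum over 15 genes was 464 and 393 CPM on day 2 and 437 and 329 CPM on day 4. The 5 called higher were Tagln and Acta2, which also stand on the contractile list, Pdgfrb (1.62), Thy1 (1.73) and, chosen after its values were seen, Twist1 (0.63). The fibrillar collagen gene Col1a1 fell from 1.08 and 0.778 to 0.414 and 0.272 CPM (-1.42 ± 0.40). The proteoglycan gene Dcn lay at 18.1 and 17.1 CPM on day 2 and 6.31 and 3.45 CPM on day 4 (-1.84 ± 0.47), while Lum was at 0 counts in both day 4 libraries. Without day 4 replicate 2 neither Col1a1 nor Dcn was called (adjusted p = 0.0683 and 0.0514), and Col1a1 was not called without day 2 replicate 1 (0.0758) and was at -2.41 with an offset for transcript length. Of 13 trophoblast genes 4 were called higher and 6 lower, with sums of 54.3 and 58.7 CPM on day 2 and 215 and 167 CPM on day 4. The higher ones were Krt7, Krt8, Krt18 and Bmp4, while Ascl2 (-3.10 ± 0.40, and -4.01 without day 4 replicate 1), Gata2 (-2.94 ± 0.48) and Hand1 fell and Tpbpa and Prl3d1 had 0 counts in all 4 libraries.

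The simple epithelial keratins rose. Krt18 lay at 17.1 and 18.9 CPM on day 2 and 133 and 109 CPM on day 4 (log2 fold change 2.75 ± 0.14, adjusted p = 5.24e-09). Its partner Krt8 lay at 10.5 and 11.6 CPM on day 2 and 59.8 and 35.7 CPM on day 4 (log2 fold change 2.12 ± 0.27, adjusted p = 4.24e-05). Of 9 keratins tested 4 were called higher and 2 lower, with a median of 1.37, and 1 lower with DESeq2, with a stricter filter on low counts or without day 4 replicate 2. Krt42 fell from 3.15 and 3.37 to 0.0690 and 0.0836 CPM (-5.37 ± 0.29). Krt14, of stratified epithelium, fell from 0.325 and 0.311 to 0.0345 and 0.0209 CPM (-3.36 ± 0.90), a call lost with DESeq2 (adjusted p = 0.0728) and without day 4 replicate 2 (0.0525). Summed keratin CPM was 34.7 and 37.8 on day 2 and 201 and 154 on day 4.

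Claudins Cldn7 and Cldn3, of tight junctions, rose too. Cldn7 (ENSMUSG00000018569.12, chromosome 11, 69964779 to 69967885) lay at 4.61 and 4.95 CPM on day 2 and 80.9 and 72.1 CPM on day 4 (log2 fold change 4.00 ± 0.26, adjusted p = 9.94e-08). Cldn3 lay at 4.08 and 5.01 CPM on day 2 and 28.2 and 24.9 CPM on day 4 (2.55 ± 0.18). Tjp1, another tight junction gene, chosen after its values were seen, was not called (0.30, adjusted p = 0.159). P-cadherin, the product of Cdh3, rose in messenger level from 52.7 and 47.9 to 132 and 155 CPM (1.51 ± 0.12). Cdh1, which encodes E-cadherin and was chosen after its values were seen, lay at 971 and 889 CPM on day 2 and 1054 and 958 CPM on day 4, with no call (log2 fold change 0.11 ± 0.13, adjusted p = 0.495). Of 26 cadherin and epithelial-mesenchymal genes 14 were called higher (53.8%) and 6 lower, with a median of 0.61. Zeb1, a repressor of epithelial genes, fell from 14.6 and 13.6 to 2.29 and 3.91 CPM (-2.20 ± 0.31). The filament gene Vim fell from 92.1 and 104 to 63.0 and 46.7 CPM (-0.84 ± 0.13). Other members, chosen after their values were seen, did not all move as Zeb1 and Vim did. Cdh2 and Snai1 were called higher (0.58 and 1.25). Snai1 was at 0.78 without day 4 replicate 2 and at 1.10 without day 2 replicate 1, and its call was lost in both fits. Ovol1 and Snai2 were called lower (-1.04 and -0.64), but neither with DESeq2 (adjusted p = 0.118 and 0.0522). With an offset for transcript length Ovol1 was at -0.17.

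Contractile genes and targets of the mechanosensor YAP rose in most cases, with 20 of 30 called higher (66.7%) and 3 lower, with a median of 0.89. Ccn1, a matricellular gene and well known YAP target, lay at 1.60 and 2.02 CPM on day 2 and 40.0 and 22.6 CPM on day 4 (4.12 ± 0.26). Its relative Ccn2, also a YAP target, lay at 17.4 and 20.9 CPM on day 2 and 139 and 147 CPM on day 4 (2.90 ± 0.24). Tpm4, a tropomyosin gene, lay at 135 and 140.5 CPM on day 2 and 394 and 342 CPM on day 4 (log2 fold change 1.42 ± 0.09, adjusted p = 3.8e-08). Tagln, a smooth muscle actin-binding protein gene, lay at 1.81 and 2.18 CPM on day 2 and 48.6 and 13.6 CPM on day 4 (3.98 ± 0.55, and 2.81 or 4.62 without day 4 replicate 1 or 2), and Acta2, chosen after its values were seen, at 1.22 and 1.04 CPM on day 2 and 32.7 and 7.19 CPM on day 4 (log2 fold change 4.14 ± 0.86, adjusted p = 0.00243). For both of these replicate 1 of day 4 was several-fold above replicate 2, and Acta2 had a log2 fold change of 2.70 without day 4 replicate 1 and was not called in a fit of the 4 libraries alone (adjusted p = 0.0608). Cytoplasmic Actb, Actn4 and Ajuba were the 3 genes called lower, by -0.46 ± 0.10, -0.55 ± 0.08 and -0.53 ± 0.08.

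The extracellular matrix also changed. Of 28 collagen and laminin genes 15 were called higher (53.6%) and 4 lower, with a median of 0.95, and the number lower was 1 without day 4 replicate 2, and 2 without day 2 replicate 1 or with no filter. Col11a1 rose from 1.12 and 0.623 to 4.64 and 3.72 CPM (2.24 ± 0.26). Col9a3 rose from 2.19 and 2.18 to 7.10 and 6.92 CPM (1.68 ± 0.22). The laminin gene Lamb2 rose from 13.5 and 12.3 to 25.3 and 22.8 CPM (0.90 ± 0.10). Col18a1 fell from 709.6 and 679.7 to 379.8 and 344 CPM (-0.94 ± 0.09). Col5a1 fell from 15.8 and 14.6 to 10.7 and 7.94 CPM (-0.70 ± 0.19), which was not called with no filter (adjusted p = 0.0577) or without day 4 replicate 2 (0.0817).

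Guidance genes, the ephrins, semaphorins, slits and their receptors, were moved on both sides, with 18 of 35 called higher (51.4%) and 9 lower and a median of 0.44. Slit3, a secreted repellent, lay at 8.06 and 6.38 CPM on day 2 and 87.1 and 83.0 CPM on day 4 (log2 fold change 3.55 ± 0.15, adjusted p = 1.49e-09). The receptor genes of 1 family diverged: Epha1 rose from 16.3 and 15.0 to 106 and 119.6 CPM (2.85 ± 0.20). Epha2 fell from 192 and 187 to 36.6 and 56.8 CPM (-2.02 ± 0.15). Sema6a rose from 33.3 and 26.6 to 159 and 165 CPM (2.43 ± 0.16), and Sema3f, with the receptor gene Nrp2, fell (-1.95 ± 0.23 and -1.22 ± 0.15). The slit receptor gene Robo2, chosen after its values were seen, had 0 counts on day 2 and was at least 4.15-fold higher on day 4, against a floor of 3 counts. Its call (adjusted p = 0.0265) was lost with an offset for transcript length and when any 1 of the 4 libraries was left out (0.0591 to 0.101).

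Imprinted genes were even in number, 11 of 35 called higher and 11 lower. That is 31.4% each way, near the 26.2% higher and 28.2% lower of all genes. Nnat, a membrane protein gene, rose from 10.6 and 11.9 to 93.8 and 72.9 CPM (2.89 ± 0.15). Sgce, which encodes a sarcoglycan, rose from 2.54 and 2.41 to 15.6 and 12.1 CPM (2.48 ± 0.18). Gnas, the stimulatory G protein gene, rose from 110.5 and 109 to 368 and 394 CPM (1.80 ± 0.09). The cell cycle inhibitor gene Cdkn1c fell from 17.6 and 23.7 to 1.83 and 1.99 CPM (-3.44 ± 0.23). Dlk1, a Notch ligand homologue, fell from 2.96 and 3.27 to 0.397 and 0.460 CPM (-2.86 ± 0.37). Zdbf2 lay at 85.7 and 81.8 CPM on day 2 and 175 and 126 CPM on day 4, with no call (log2 fold change 0.85 ± 0.38, adjusted p = 0.083), and it was called in a fit of the 4 libraries alone (adjusted p = 0.00163). Allelic expression was not measured. Of the 22 clustered beta protocadherins 13 were tested, Pcdhb18 was called higher (2.38 ± 0.89) and Pcdhb17 lower (-3.91 ± 0.62), both below 1 CPM, and between 0 and 3 were higher without 1 of the libraries. Pcdhb18 was not called with DESeq2 or without day 2 replicate 1, day 2 replicate 2 or day 4 replicate 1 (adjusted p from 0.092 to 0.159).

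Genes of sugar metabolism were divided. Of 24 glycolysis and glucose transport genes 9 were called higher (37.5%, against 26.2% of all genes) and 6 lower (25.0%, against 28.2%). The median was 0.05, and fewer genes were called lower without day 4 replicate 1. The glucose transporter gene Slc2a1 rose from 345 and 374 to 885 and 986 CPM (1.38 ± 0.12). The aldolase gene Aldoc rose from 6.09 and 5.89 to 32.8 and 49.3 CPM (2.77 ± 0.17). The lactate dehydrogenase gene Ldhb fell from 31.5 and 27.9 to 14.4 and 17.7 CPM (-0.89 ± 0.18). In the hypoxia list 7 of 16 genes were called higher (43.8%) and 3 lower (18.8%), beside the same shares of all genes. Ndrg1 lay at 2.48 and 3.14 CPM on day 2 and 47.3 and 53.8 CPM on day 4 (log2 fold change 4.18 ± 0.16, adjusted p = 5.99e-10). Vegfa lay at 17.9 and 18.4 CPM on day 2 and 36.4 and 35.5 CPM on day 4 (0.99 ± 0.09). The carbonic anhydrase gene Car9 lay at 4.39 and 5.97 CPM on day 2 and 2.62 and 1.59 CPM on day 4 (-1.29 ± 0.29). With an offset for transcript length the fall of Car9 was -0.29 and not called (adjusted p = 0.522).

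Of the 13 genes encoded by mitochondrial DNA 3 were called lower, with steps of -0.48 ± 0.12 (mt-Nd3), -0.35 ± 0.09 (mt-Nd1) and -0.28 ± 0.08 (mt-Nd2). None of them was called without day 2 replicate 2, 1 was called in a fit of the 4 libraries, and 5 were called lower with DESeq2, upper-quartile scaling or a stricter filter or without day 2 replicate 1. The call of mt-Nd2 was lost in 5 alternatives (adjusted p from 0.0605 to 0.0985). Of 28 cholesterol genes 12 were called lower and 2 higher, with a median of -0.19: Insig1, a sterol sensor partner, fell from 237 and 245 to 88.5 and 117 CPM (-1.23 ± 0.11), and Idi1 by 0.60 on the log2 scale, while Tm7sf2 and Ebp rose (0.71 ± 0.10 and 0.61 ± 0.16). Without day 2 replicate 1 Ebp was not called (adjusted p = 0.0789).

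Cell cycle genes fell more than they rose, with 15 of 29 called lower (51.7%) and 6 higher and a median of -0.40. Ccne1, a cyclin gene of entry into DNA replication, lay at 221 and 244 CPM on day 2 and 85.8 and 89.4 CPM on day 4 (log2 fold change -1.41 ± 0.09, adjusted p = 4.02e-08). Its paralogue Ccne2 lay at 34.7 and 37.7 CPM on day 2 and 15.6 and 17.6 CPM on day 4 (-1.13 ± 0.09). Cdkn1b, which encodes the inhibitor p27, lay at 50.5 and 47.1 CPM on day 2 and 194 and 179 CPM on day 4 (log2 fold change 1.93 ± 0.08, adjusted p = 9.2e-10). The kinase gene Cdk6 rose from 19.4 and 16.5 to 51.0 and 42.8 CPM (1.38 ± 0.14). Of 20 targets of p53, 10 were called lower and 3 higher, with a median of -0.22 and 5 higher without the filter on low counts. Gtse1 fell from 233 and 233 to 116 and 118 CPM (-0.99 ± 0.07). The p53 inhibitor gene Mdm2 fell from 168 and 173 to 107 and 99.5 CPM (-0.72 ± 0.08). Perp, of cell junctions, rose from 8.83 and 9.81 to 18.2 and 15.5 CPM (0.86 ± 0.14).

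Of 26 interferon-response genes tested 12 were called higher (46.2%) and 4 lower, with a median of 0.72. B2m, the light chain of MHC class I (ENSMUSG00000060802.8, chromosome 2, 122147686 to 122153083), lay at 3.98 and 4.85 CPM on day 2 and 23.9 and 16.3 CPM on day 4 (log2 fold change 2.19 ± 0.21, adjusted p = 1.29e-06). The class I heavy chain gene H2-K1 lay at 32.8 and 35.6 CPM on day 2 and 58.9 and 58.3 CPM on day 4 (0.78 ± 0.13). Ifit2 lay at 7.43 and 6.67 CPM on day 2 and 13.7 and 14.7 CPM on day 4 (1.01 ± 0.13). Antiviral genes were found on both sides. Ifih1 (3.55), Mx2 (1.54), Oasl2 (1.06) and Bst2 (0.75), chosen after their values were seen, were called higher, with Mx2 losing its call with an offset for transcript length and without day 2 replicate 2 or day 4 replicate 1, and Oasl2 without replicate 2 of either day (adjusted p from 0.0737 to 0.201). Oas1a, Mx1 and Ddx58 fell (-1.26 ± 0.29, -0.98 ± 0.15 and -0.60 ± 0.18), and Ddx58 lost its call with an offset for transcript length and in 3 of the 4 fits that leave out a library (adjusted p from 0.0533 to 0.261). The number lower was 2 with an offset for transcript length and without either day 2 replicate 2 or day 4 replicate 1. The summed CPM of the list was 307 and 316 on day 2 and 484 and 521 on day 4.

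The step was set beside the whole WT course, day 7 against day 0, which shares no library with it. The course had 12233 genes called (66.2%), 6088 higher (32.9%) and 6145 lower (33.2%). Of the 2245 genes that rose 2-fold or more in the step, 1444 (64.3%) were higher on day 7 than on day 0 and 350 (15.6%) lower, and these 1444 were 23.7% of all genes higher in the course. Of the 2315 that fell 2-fold or more, 1445 (62.4%) were lower on day 7 and 367 (15.9%) higher, and the 1445 were 23.5% of the genes lower in the course. The neighbouring steps share libraries with this one and are given only as counts: 11373 genes (61.5%) were called from day 0 to day 2 and 6811 (36.8%) from day 4 to day 7.

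The step was also measured in TKO cells, which share no library with the WT step. In TKO cells 8393 genes were called (45.4%), 4527 higher (24.5%) and 3866 lower (20.9%). Dnmt1 lay at 48.0 and 52.4 CPM on day 2 and 36.2 and 40.7 CPM on day 4 in TKO cells, against 441 and 401 CPM on day 2 and 313 and 319.9 CPM on day 4 in WT cells. The 2 TKO day 4 libraries stood apart from each other by more genes than those of the WT days compared: 76 and 87 genes were over 2-fold higher in replicate 1 and in replicate 2, among genes at 5 CPM or more, against 33 and 46 in WT day 4 and 8 and 6 in WT day 2. The difference between the steps was called for 2163 genes (11.7%), for 1432 of which the TKO step was the higher (7.75%) and for 731 the lower (3.95%). That count was 1189 without TKO day 2 replicate 1, 1170 without TKO day 2 replicate 2, 1234 without WT day 2 replicate 2 and 1435 without WT day 4 replicate 1.

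Both directions of the step were compared between genotypes. Of the 2245 genes that rose 2-fold or more in WT cells 1824 (81.2%) were called higher in TKO cells as well, and for 376 (16.7%) the TKO step was lower by the test of the difference. Of the 2315 that fell 2-fold or more 1328 (57.4%) were called lower and 99 (4.28%) higher in TKO cells, and for 887 (38.3%) the TKO step was higher by that test. Both sets were chosen on WT values, so the WT side of this comparison is large by choice.

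**Figure D5:**
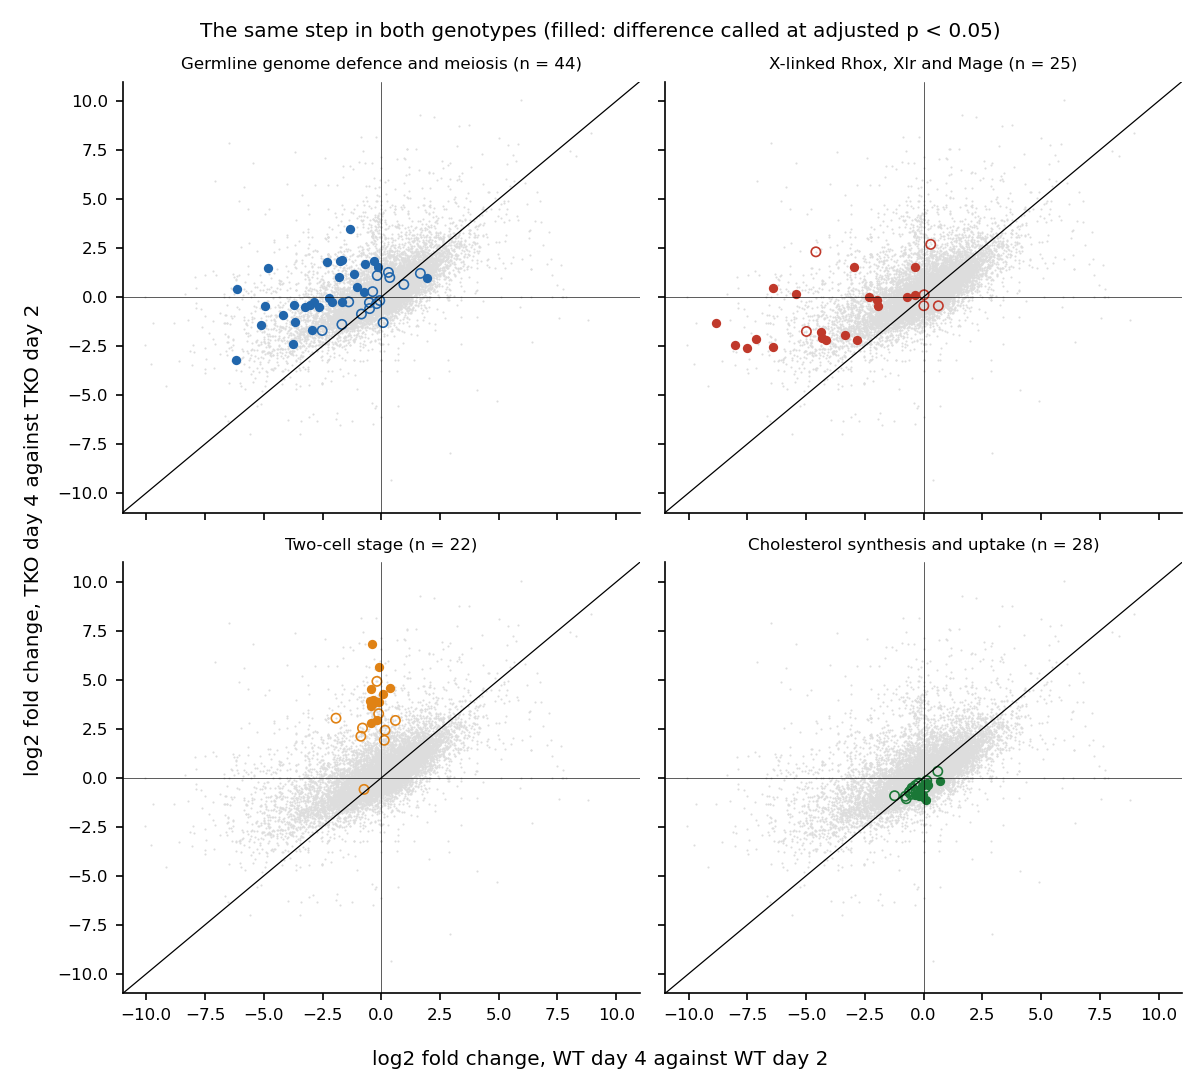
The log2 fold change of the same step in TKO cells (vertical) against that in WT cells (horizontal) for the genes of 4 lists (germline, X-linked, two-cell stage and cholesterol), 1 panel each, over all genes tested in grey, with filled points where the difference between the steps was called and a line where the steps are equal. Most X-linked and germline genes lie above the diagonal on the side of WT falls, with 19 of 25 and 29 of 44 differences called.

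For many germline and X-linked genes, and for Dnmt3l, the TKO step was higher by the test of the difference. For the germline list 28 of 44 differences were called with the TKO step higher and 1 with it lower, and 16 genes rose and 11 fell in TKO cells. Hormad1 lay at 35.8 and 31.6 CPM on day 2 and 13.4 and 11.2 CPM on day 4 in TKO cells (difference of steps 3.65 ± 0.23, adjusted p = 2.71e-06), Rpl10l at 102 and 103 CPM on day 2 and 12.2 and 9.49 CPM on day 4 (2.93 ± 0.26) and Dazl at 39.5 and 39.4 CPM on day 2 and 7.50 and 7.54 CPM on day 4 (1.36 ± 0.26, adjusted p = 0.0046). For the X-linked list 19 of 25 differences were called, all with the TKO step higher, and 4 genes rose and 12 fell in TKO cells. Dnmt3l lay at 364 and 395 CPM on day 2 and 42.2 and 17.4 CPM on day 4 in TKO cells (3.83 ± 0.45, adjusted p = 0.000428).

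Other lists held differences in both directions. In the naive list 10 of 25 differences were called with the TKO step higher, and Zfp42 lay at 83.1 and 87.7 CPM on day 2 and 24.0 and 13.6 CPM on day 4 in TKO cells (1.39 ± 0.30, adjusted p = 0.0106). Nanog lay at 102 and 100.4 CPM on day 2 and 307 and 268 CPM on day 4 in TKO cells, and its difference of steps did not pass the test (-0.37 ± 0.15, adjusted p = 0.131). In the cholesterol list 12 of 28 differences were called with the TKO step lower, and 25 of the 28 genes fell in TKO cells. In the two-cell-stage list 12 of 22 differences were called with the TKO step higher, and in TKO cells 18 genes rose and 1 fell, with a median of 3.77. The summed CPM of the 24 listed genes in TKO cells was 174 and 159 on day 2 and 187 and 138 on day 4, which overlap. In WT cells most of this sum was Eif1a, so the sum need not follow the other members. Copies in the Zscan4 and Usp17l families may share reads, so values of single members are uncertain. Among the 16 germline repressors 0 differences were called in edgeR, against 3 at an unadjusted p under 0.05 and 2 with DESeq2.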

How the data were processed

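RNA from E14 cells was sequenced from 16 stranded messenger RNA libraries (8 groups of 2). Each deposited table holds expected counts (estimated counts) that the authors left unnormalised, 1 row per transcript, per the file headers. The deposited TPM values are scaled for depth and length, and the other deposited column is the effective length of the transcript. The submitters' processing notes name kallisto, GRCm38 and mm10; version and annotation are not given in the sources used here. Of 119414 transcripts 116728 (97.8%) matched GENCODE vM21, and the rest held 0.95% to 1.05% of counts per library. Library totals were 33168178 to 58197630 over all transcripts, and 32834859 to 57645822 after counts were summed over the transcripts of a gene and rounded. TPM entered no test and effective length 1 alternative.

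The quasi-likelihood test of edgeR 4.0.16 (R 4.3.3, robust, TMM factors, filterByExpr on the groups) used all 16 libraries with 1 mean per group, 8 residual degrees of freedom and a common biological coefficient of variation of 0.111. Of 18489 genes tested, 17004 were protein-coding. A standard error is the absolute log2 fold change divided by the root of F, and counting intervals and floors cover counting error only. The difference of the TKO and WT steps was an interaction in the same fit. P-values set a change against the spread between the 2 libraries of a group, estimated over all 8 groups together. The labels call these libraries biological replicates.

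Alternatives were DESeq2 1.42.0, other scalings and filters, fits of 4 or 8 WT libraries, an offset for effective length, a replicate block and leaving out each library. Named genes were the 12 largest rises and falls among called protein-coding genes at 5 CPM or more whose libraries do not overlap, without predicted genes. To these came, from each list and direction, at most 3 called genes, those with the lowest adjusted p (where none was called, the 2 with the highest mean) and the fixed markers Pou5f1, Sox2, Nanog, Klf4, Esrrb, Zfp42, Fgf5, Otx2, Pou3f1, T, Eomes, Dnmt1, Dnmt3a, Dnmt3b, Dnmt3l, Uhrf1, Dazl and Zdbf2. Other names are marked as chosen after their values were seen. The comparison and the lists were chosen with earlier results of these data known. Promoters were read from the RefSeq table for GRCm38.p6. Results for some genes are not reported here.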

Additional observations from a re-analysis of the deposited data

Results flagged for a closer look

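The difference between the TKO step and the WT step, day 4 against day 2, was called for 2163 genes (11.7% of those tested). Among the 40 largest changes and fixed markers of the WT step it was called for 17 genes, each by the test of the interaction. The 24 largest changes were chosen on the WT step, which enters this difference, so their share cannot be read against that of all genes. The values that follow are log2 differences of the TKO step minus the WT step. The TKO step was higher for Srp54b (7.2), Magea4 (7.51), Tuba3b (6.54), Rhox1 (5.01), Vwa3b (4.65), Capn3 (3.97), Insc (3.86), Dnmt3l (3.83), Nr0b1 (3.1), Rpl10l (2.93), Aire (2.82), Arl14epl (2.76), Esrrb (1.9), Zfp42 (1.39), Dazl (1.36) and Pou3f1 (1.04). It was lower for Snph (-2.65). Srp54b and Tuba3b have near-identical copies, Aire overlaps Dnmt3l, and Vwa3b and Magea4 had 1 count on WT day 4, so these 5 values are uncertain.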

How the results depend on the processing

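The count of 10055 genes called in the step was 9772 with DESeq2, 10052 and 10109 with RLE and upper-quartile scaling, 9643 with no filter, 9477 with a stricter one (1 CPM in 2 libraries of a group), 8994 in a fit of these 4 libraries, 8814 in a fit of the 8 WT libraries and 9108 with an offset for effective length. Leaving out 1 library gave 8247 to 8991. The labels do not say that replicate numbers mark a shared culture or day, and the deviations of same-numbered libraries correlated at 0.14, from 2 groups of 2. A replicate block gave 9771 genes, and 1855 for the interaction. Of the genes called, 45% to 53% were higher across these settings, and the median over all genes stayed within 0.1 of the reported one.

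The interaction count of 2163 ranged from 1170 to 2346 when 1 library was left out (806 to 1477 higher, 328 to 869 lower); leave-outs of TKO libraries, and of days 0 and 7 for the WT course, were chosen after seeing the data. It was 2476 with DESeq2 and 1572 with the length offset. Of 209 named genes 204 were called, 187 of them in all alternatives that tested them, and of 2709 alternative values 43 lost the call, 3 gained it and 5 changed sign. Those 5 were Klf4 at 0.22 (length offset) and from -0.46 to 0.14 when 1 library was left out, Fgf5 at 0.0021 (no filter) and from -0.21 to 0.10, and Eomes from -0.20 to 1.07, none called with all libraries; the cause was not tested. Of the genes given in the text, Dnmt3a (adjusted p = 0.0522) and Rec8 (0.0567) lost their calls in the block. Few counts limit the Hox, Mage and beta protocadherin genes.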
